A study of Pleurotus tuoliensis with 2 samples.

Results

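The unigenes described here are those of *Pleurotus tuoliensis* whose best Swiss-Prot match carries the name of an enzyme of cellulose breakdown, in mycelia before and after physiological maturation. Members were the unigenes with a mean above 1 FPKM over 6 libraries whose protein name contained cellulos, cellobio, endoglucanase, exoglucanase, endo-beta-1,4-glucanase or beta-glucosidase. These were 104 of the 16496 unigenes with a mean above 1 FPKM, and of 17030 unigenes in all. FPKM are fragments scaled to the length of the unigene and to the mapped fragments of the library, so levels can be compared between unigenes. A further 2 unigenes with such names lay below the limit: DN2252_c0_g1, a β-glucosidase, at 0.828 FPKM on average, and DN5374_c0_g2, a glucan 1,3-β-glucosidase, which was listed at 0 in all 6 bottles. The member just above the limit was DN548_c0_g1, with a mean of 1.02 FPKM.

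Mature mycelia came from 3 bottles of strain ACCC 50869 sampled at day 35 of a phase at 17 °C in the dark. The 3 bottles of immature mycelia were taken at day 0, when this phase began, after 37 days at 25 °C in the dark on 820 g of substrate made mainly of cotton seed hull, wheat bran and corncob, which all bottles shared. Each library stands for 1 bottle. Maturity, temperature, age of the culture and time spent on the substrate changed together and cannot be told apart. A lower value can likewise mean a smaller share of hyphae that express a gene or less of its RNA per hypha, which these bulk samples cannot separate. FPKM give a share of the RNA of a library and not an amount.

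Cellulose is a chain of glucose units packed into crystalline fibers in plant cell walls. White-rot fungi such as *Pleurotus* secrete several kinds of enzyme that act on it together. Endoglucanases cut inside the chain, cellobiohydrolases (exoglucanases) release the disaccharide cellobiose from chain ends, and β-glucosidases split cellobiose into glucose. Lytic polysaccharide monooxygenases, long filed as glycoside hydrolase family 61 and now as auxiliary activity family 9, break the chain by oxidation, and cellobiose dehydrogenase oxidizes cellobiose and can pass electrons to them.

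By these activities 8 members were endoglucanases, 22 cellobiohydrolases, 24 oxidative enzymes and 31 β-glucosidases. The remaining 19 carried a matching name but act mainly on other glucans or glucosides, and are described last. Among the 19 were 16 with β-1,3- or β-1,6-glucan in their name, a pair of α/β-glucosidases and a xyloglucan-specific enzyme. All 104 had a match in Nr, 100 of them to *Pleurotus*, and none (0) to an organism outside the Agaricomycetes, against 24 of the 13407 tested unigenes with an Nr match. The 104 unigenes were matched to 69 different Nr proteins, and 61 of them shared their protein with another member. Several unigenes can therefore be pieces or copies of 1 gene, and they are not independent measurements. By Nr name, 16 of 22 cellobiohydrolases belonged to family 7 and 3 to family 6. Of the 31 β-glucosidases, 24 belonged to family 3 and 5 to family 1. Family 61 held 20 of the 24 oxidative enzymes, but every member of that family was placed in this class by the sorting itself. The gene ontology term for cellulose binding was listed for 17 of the 22 cellobiohydrolases, 8 of the 24 oxidative enzymes, 3 of the 8 endoglucanases and 2 of the 31 β-glucosidases. Among all tested unigenes it was listed for 53 of 16496 (0.321%). The choice of members did not use this term. The study based its gene ontology terms on the Nr annotations, so term and name both rest on sequence matches.

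The levels spanned a wide range. The median member had a mean of 24.1 FPKM, against 28.1 FPKM for all tested unigenes, and 16 members exceeded 100 FPKM. The oxidative enzyme DN2820_c1_g1 was the most abundant at 509 FPKM and ranked 308 among the 16496 unigenes. The endoglucanases were low, with a median of 6.63 FPKM and a highest member at 34.8 FPKM. Medians were 15.3 FPKM for cellobiohydrolases, 21.2 FPKM for oxidative enzymes and 30.4 FPKM for β-glucosidases. Few unigenes carried most of the signal of the oxidative enzymes and the cellobiohydrolases: the 3 most abundant held 65.1% of the summed mean FPKM of the oxidative enzymes and 51.8% of that of the cellobiohydrolases, and 31.6% of that of the β-glucosidases.

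**Figure D1:**
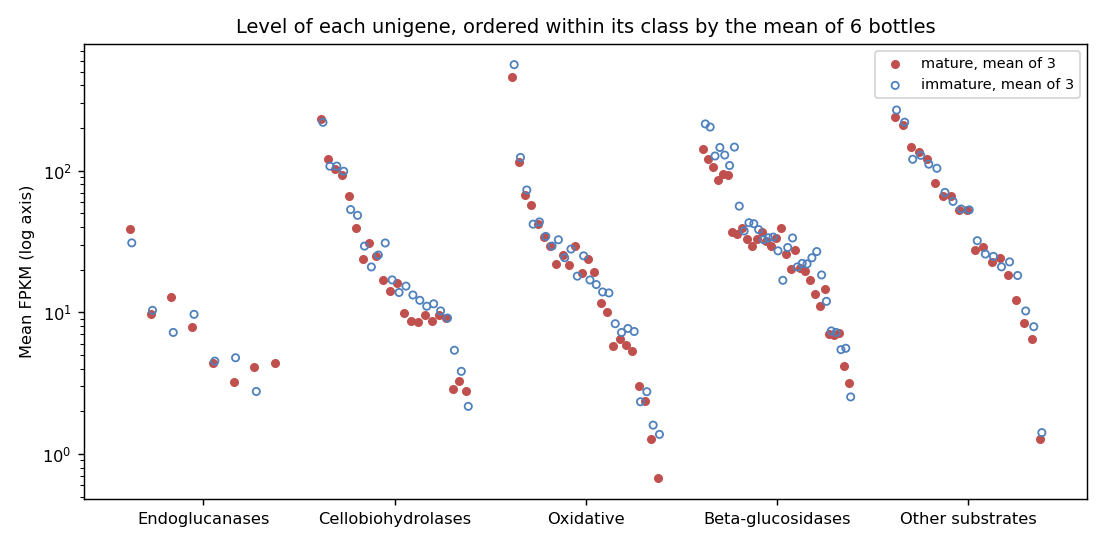
Mean FPKM of each of the 104 unigenes in 3 mature bottles (filled) and 3 immature bottles (open), on a log axis, ordered within each class by the mean of all 6 bottles. The endoglucanases lie lowest, with a median of 6.63 FPKM, and the oxidative enzyme DN2820_c1_g1 lies highest at 509 FPKM; the immature mean of 1 endoglucanase is 0 and is not drawn.

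The question was whether the transcripts of these enzymes differ between mature and immature mycelia. Log2 ratios are mature minus immature on log2(FPKM + 1), fitted with limma to all 16496 unigenes, with their standard error (SE). The 1 FPKM added to each value shrinks the ratio of low unigenes. Adjusted p values are Benjamini-Hochberg values of this fit over all unigenes. Results are also given against the thresholds stated in the study's methods, an unadjusted p of at most 0.05 with a log2 ratio of at least 1 in either direction.

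Most members had small log2 ratios, which lay more often below than above 0. The log2 ratio was within 0.5 of 0 for 83 of the 104 members (79.8%), against 75.8% of all tested unigenes. It lay below 0 for 72 members (69.2%), against 57.7% of all unigenes. The median was −0.16 for the members and −0.07 for all unigenes. At the study's thresholds 2 members were higher, where 1.18% of all unigenes were, and none (0) was lower, where 1.82% were. Of these 2, DN558_c0_g1 stood at 0 in every immature bottle and was a member only through its mature bottles. With limma no member (0) passed an adjusted p of 0.05, where 11 of all unigenes did (0.0667%), and the lowest adjusted p of a member was 0.0886. At an unadjusted p of at most 0.05, 6 members were higher (5.77%, background 6.09%) and 12 were lower (11.5%, background 9.33%). Mature and immature values were fully apart for 5 members that were higher (background 8.69%) and for 16 that were lower (15.4%, background 14.2%). The shares at an unadjusted p lay near those of all unigenes in both directions. Without overlap the share lay near that of all unigenes for lower values, and below it for higher values (4.81%, background 8.69%).

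**Figure D2:**
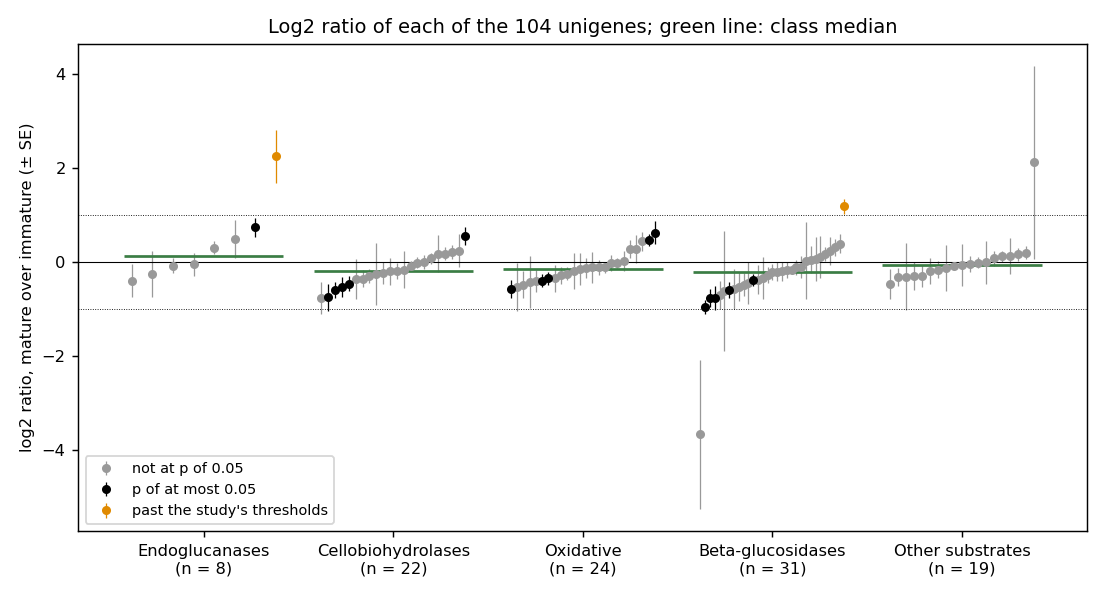
Log2 ratio (mature over immature, ± SE) of each of the 104 unigenes by class, with the class median as a green line and dotted lines at 1 and −1. Orange points are the 2 unigenes past the study's thresholds, black points others with an unadjusted p of at most 0.05. The class medians lie between −0.22 and 0.14. The highest, 0.14 for the endoglucanases, includes DN558_c0_g1, a member only through its mature bottles.

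Summed over a class, the β-glucosidases had the mature-to-immature ratio farthest from 1. Their sum was 1439, 1077 and 1139 FPKM in mature bottles 1, 2 and 3, against 1663, 1597 and 1762 FPKM in immature bottles 1, 2 and 3. The groups did not overlap, and the mature mean was 0.728 of the immature mean (1218 ± 194 against 1674 ± 82.9 FPKM, mean ± SD, n = 3). Mature bottle 1 lay closest to the immature bottles, as it did on the first principal component of all unigenes of at least 500 bases. The cellobiohydrolases summed to 859 ± 104 FPKM in mature and 867 ± 57.4 FPKM in immature mycelia, and these overlapped. The oxidative enzymes summed to 1015 ± 46.9 against 1135 ± 63.8 FPKM. These overlapped as well, with 1066 FPKM in mature bottle 1 and 1062 FPKM in immature bottle 1. The endoglucanases were the class with the higher mature sum, 85.2 ± 5.30 against 70.2 ± 10.5 FPKM, also without overlap. That sum includes DN558_c0_g1, a member only through its mature bottles, with 8.0 FPKM in mature bottle 1 and 0 in every immature bottle. Mature bottle 1 summed to 83.2 FPKM and immature bottle 1 to 78.0 FPKM, so without DN558_c0_g1 the groups would overlap. No test was made on these sums, in which pieces of 1 gene count several times.

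**Figure D3:**
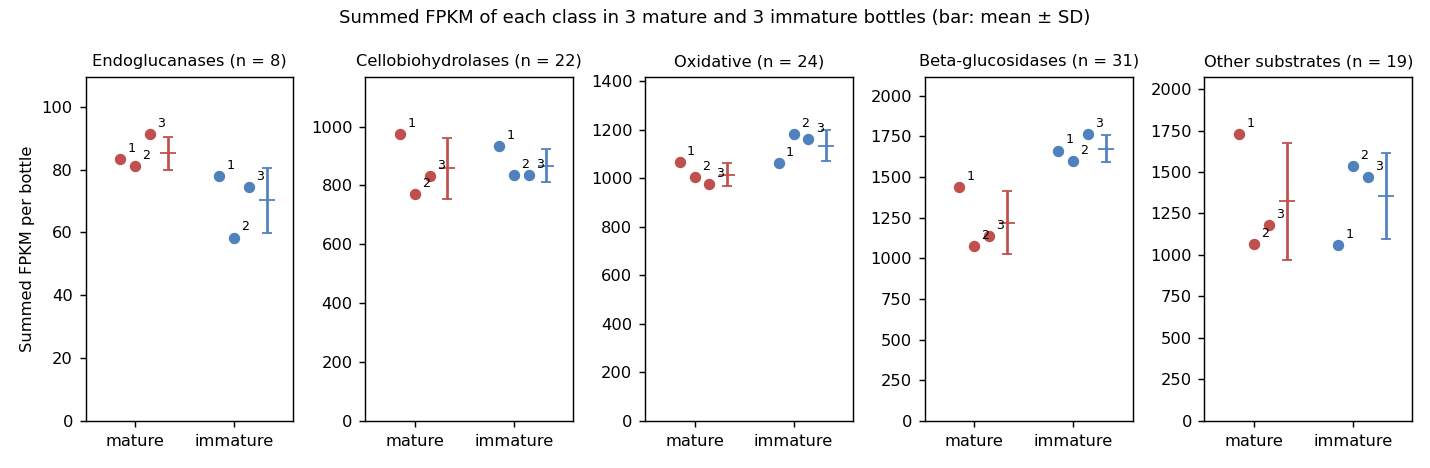
Summed FPKM of each class in each bottle (points, numbered by bottle) with the mean ± SD of 3 bottles, mature left and immature right, on axes that start at 0. The β-glucosidase sums were 1077 to 1439 FPKM in mature bottles and 1597 to 1762 FPKM in immature bottles.

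The endoglucanases were few and varied. DN9027_c1_g6, matched to endoglucanase E-4 of *Thermobifida fusca* and in Nr to family 9, was the most abundant. It had 42.1, 35.1 and 38.6 FPKM in mature bottles, against 29.4, 27.8 and 35.6 FPKM in immature bottles, with a fitted log2 ratio of 0.31 (SE 0.13, adjusted p = 0.338). The groups overlapped only through mature bottle 2 and immature bottle 3. DN5357_c0_g2, matched to the endoglucanase A of *Paenibacillus lautus* and to family 44, had 9.85, 13.7 and 14.9 FPKM in mature bottles, against 8.18, 6.16 and 7.29 FPKM in immature bottles. All 3 mature bottles lay above all immature bottles, and the log2 ratio was 0.74 (SE 0.21, adjusted p = 0.214).

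The highest log2 ratio among all members belonged to DN558_c0_g1, matched to the manganese-dependent endoglucanase Eg5A of *Phanerochaete chrysosporium*. It was listed at 8.0, 1.80 and 3.32 FPKM in mature bottles and at 0 in every immature bottle, and the fitted log2 ratio stood at 2.26 (SE 0.56, adjusted p = 0.190), a value that depends on the 1 FPKM added because the immature bottles are at 0. This unigene passed the limit of a mean above 1 FPKM only through the mature bottles, so its membership and its direction are not independent. It has 293 bases. Near that length the smallest values above 0 were 1.33 to 1.83 FPKM in the 6 libraries, so that mature bottle 2 lay within that range and mature bottle 3 not far above it. Its companion DN558_c0_g2, with 999 bases and matched to the same *P. ostreatus* protein, had 3.89, 8.62 and 11.3 FPKM in mature bottles, against 14.0, 4.68 and 10.3 FPKM in immature bottles. These groups overlapped fully, and the log2 ratio was −0.25 (SE 0.49, adjusted p = 0.836). Its log2 ratio lay between −0.65 and 0.14 when a bottle was left out, so no direction can be given for the longer piece.

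The remaining endoglucanases were low. The family 12 enzyme DN4286_c0_g1, matched to cel12A of *Magnaporthe oryzae*, had 4.11 ± 1.18 FPKM in mature and 2.76 ± 1.39 FPKM in immature mycelia (mean ± SD, n = 3). A pair of unigenes of 1 family 5 protein, DN4012_c0_g1 and DN4012_c0_g2, had log2 ratios of −0.04 and −0.39. DN8963_c0_g2, matched to endoglucanase-5 of *Humicola insolens*, had 9.72 ± 0.591 against 10.3 ± 1.43 FPKM. Their adjusted p values were 0.599 or higher.

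Cellobiohydrolases of family 7, which work from the reducing end of the chain, were the larger group, and several abundant cellobiohydrolases differed little between the stages. DN9326_c0_g3 had 255, 232 and 212 FPKM in mature bottles, against 241, 207 and 211 FPKM in immature bottles, and the log2 ratio came to 0.08 (SE 0.12, adjusted p = 0.754). Its 95% confidence interval reached 0.28 to either side of that log2 ratio. DN8579_c0_g2, matched in Nr to a cellobiosidase precursor without a family number, had 94.0 ± 5.24 FPKM in mature and 99.2 ± 6.41 FPKM in immature mycelia (mean ± SD, n = 3). DN9255_c0_g3 had 122 ± 7.78 against 108 ± 16.5 FPKM. Both groups of bottles overlapped in each of these unigenes. By contrast DN9326_c0_g1 varied between bottles of 1 stage, with 161, 58.0 and 91.4 FPKM in mature bottles against 103, 136 and 84.4 FPKM in immature bottles. The short DN9968_c0_g1 had 66.1 ± 29.6 against 53.2 ± 13.4 FPKM, and DN8579_c1_g1, matched to an exoglucanase of *Agaricus bisporus*, had 39.7 ± 2.90 against 48.4 ± 15.4 FPKM.

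In family 7, 3 of the 16 unigenes were lower without overlap (18.75%, background 14.2%), all of them among its less abundant members. None (0) of the 16 was past the study's thresholds. DN9255_c0_g4 had 9.60, 8.71 and 11.3 FPKM in mature bottles, against 17.1, 15.3 and 13.6 FPKM in immature bottles. The groups did not overlap, and the log2 ratio was −0.59 (SE 0.16, adjusted p = 0.204). A pair matched to 1 *P. ostreatus* family 7 protein had negative log2 ratios as well: DN8839_c0_g1 had 8.27, 8.32 and 9.65 FPKM in mature bottles, against 17.3, 10.7 and 11.8 FPKM in immature bottles, and DN8839_c0_g2 stood at −0.76 on the log2 scale (SE 0.33, adjusted p = 0.346), beside −0.52 (SE 0.21, adjusted p = 0.319) for DN8839_c0_g1. DN8579_c1_g2 had 2.88 ± 0.973 against 5.40 ± 0.662 FPKM, without overlap. Of the 16 unigenes of family 7, 12 had a log2 ratio below 0, where 57.7% of all unigenes did, and their median was −0.21 beside −0.07 for all unigenes.

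Family 6 holds the cellobiohydrolases that work from the non-reducing end. DN5909_c0_g1, matched to exoglucanase 3 of *Agaricus bisporus*, had 34.0, 30.5 and 27.8 FPKM in mature bottles, against 27.0, 16.9 and 18.8 FPKM in immature bottles. Its lowest mature bottle lay just above its highest immature bottle, and the log2 ratio was 0.56 (SE 0.20, adjusted p = 0.270). The other family 6 unigenes, DN8122_c0_g1 and DN8069_c0_g1, had log2 ratios of 0.22 and 0.01. No test was made of the difference between families 6 and 7.

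Among the oxidative enzymes, DN2820_c1_g1 held 47.4% of the summed level. It was matched to the cellulose-growth-specific protein of *Agaricus bisporus*, a family 61 protein. It had 497, 433 and 441 FPKM in mature bottles, against 433, 638 and 613 FPKM in immature bottles. Immature bottle 1 stood with the mature bottles, and the log2 ratio was −0.28 (SE 0.18, adjusted p = 0.50). DN4535_c0_g1, matched to endoglucanase-7 of *Hypocrea jecorina*, also a family 61 protein despite its name, had 115 ± 8.42 FPKM in mature and 124 ± 13.3 FPKM in immature mycelia (mean ± SD, n = 3). Other abundant family 61 unigenes were DN6244_c0_g2, with 57.1 ± 8.76 against 41.9 ± 9.18 FPKM, DN805_c0_g1, with 41.9 ± 16.5 against 43.5 ± 9.77 FPKM, and DN6387_c0_g1, with 34.0 ± 2.69 against 34.4 ± 3.06 FPKM, and in all of them the stages overlapped. Cellobiose dehydrogenase was represented by a pair of unigenes of 1 protein. The abundant one, DN7172_c0_g1, had 75.2, 59.1 and 68.2 FPKM in mature bottles, against 87.3, 67.0 and 65.2 FPKM in immature bottles, with a fitted log2 ratio of −0.11 (SE 0.16, adjusted p = 0.764). DN7172_c0_g2 averaged 1.28 FPKM in mature and 1.60 FPKM in immature mycelia.

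Individual family 61 unigenes lay on both sides of 0. DN8978_c1_g1 had 26.4, 23.2 and 22.0 FPKM in mature bottles, against 17.3, 15.3 and 18.2 FPKM in immature bottles. The groups did not overlap, and the log2 ratio was 0.47 (SE 0.13, adjusted p = 0.203). DN5670_c0_g1 had 27.6, 21.5 and 17.2 FPKM in mature bottles, against 35.0, 28.9 and 33.9 FPKM in immature bottles. It did not overlap either, and its log2 ratio was −0.56 (SE 0.19, adjusted p = 0.262). DN8978_c1_g1 and DN8566_c0_g1 share the name cellulose-growth-specific protein, but DN8566_c0_g1 had 19.0 ± 2.88 against 25.1 ± 1.01 FPKM, and the fitted log2 ratio stood at −0.39 (SE 0.14, adjusted p = 0.280). A pair matched to 1 protein, DN2444_c0_g1 and DN2723_c0_g1, had log2 ratios of 0.63 and 0.28. In all, 6 of the 24 oxidative enzymes had a positive and 18 a negative log2 ratio (57.7% of all unigenes lay below 0), and their median was −0.13. Without overlap 1 was higher (4.17%, background 8.69%) and 4 were lower (16.7%, background 14.2%).

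The other unigene past the study's thresholds was a β-glucosidase. DN3476_c0_g1, with 332 bases and matched to β-glucosidase 1A of *Phanerochaete chrysosporium* and to family 1, had 35.2, 37.9 and 46.0 FPKM in mature bottles, against 17.3, 14.2 and 19.0 FPKM in immature bottles. All mature bottles lay well above all immature bottles, and the log2 ratio was 1.19 (SE 0.16, adjusted p = 0.0886). The study named this unigene from the same samples, so its direction is no independent evidence. DN5472_c0_g1, matched to the same *P. ostreatus* protein, had 25.3, 33.2 and 24.6 FPKM in mature bottles, against 25.2, 16.3 and 21.3 FPKM in immature bottles, and the log2 ratio came to 0.40 (SE 0.20, adjusted p = 0.395).

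Unigenes of another family 1 protein had negative log2 ratios. DN5472_c0_g2, matched to β-glucosidase 1B of *P. chrysosporium*, had 12.1, 12.6 and 15.6 FPKM in mature bottles, against 24.8, 31.03 and 24.8 FPKM in immature bottles. All mature bottles lay well below all immature bottles, and the log2 ratio was −0.95 (SE 0.16, adjusted p = 0.118). It missed the study's limit on the log2 ratio narrowly, and was past it when immature bottle 1, immature bottle 3 or mature bottle 3 was left out, with a log2 ratio of −1.06 without mature bottle 3. When only unigenes of at least 500 bases were fitted, it was the 1 member of 84 past the adjusted threshold (limma, adjusted p = 0.0461), where 101 of all 11839 such unigenes were (0.853%). DN4635_c0_g1, matched to the same protein, had 11.3, 14.5 and 7.29 FPKM in mature bottles, against 14.0, 24.4 and 16.6 FPKM in immature bottles, with a fitted log2 ratio of −0.70 (SE 0.30, adjusted p = 0.341). The opposed direction of DN5472_c0_g1 and DN5472_c0_g2, which Trinity placed in 1 cluster, was not tested as a difference.

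**Figure D4:**
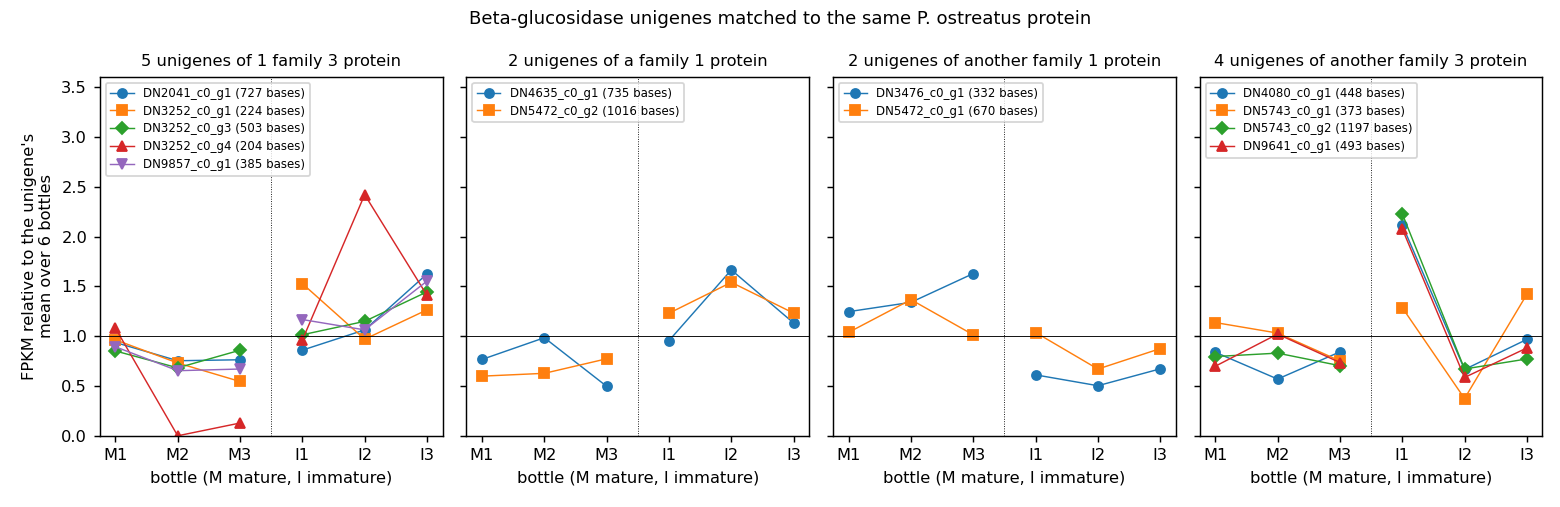
FPKM of β-glucosidase unigenes relative to each unigene's mean over 6 bottles, in mature (M) and immature (I) bottles, grouped by the *P. ostreatus* protein they were matched to. The 5 unigenes of the first protein had log2 ratios of −0.47 to −3.66, those of the second −0.95 and −0.70, those of the third 1.19 and 0.40, and 3 of the 4 unigenes of the last stood highest in immature bottle 1.

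Most of the lower sum of the class came from 1 family 3 protein, to which 5 unigenes of 204 to 727 bases were matched. All 5 had negative log2 ratios, where 57.7% of all unigenes lay below 0, and 3 of them were lower without overlap (background 14.2%). As possible pieces of 1 gene, the 5 are not independent measurements. DN3252_c0_g3, the most abundant β-glucosidase, had 152, 121 and 153 FPKM in mature bottles, against 181, 205 and 257 FPKM in immature bottles, and the fitted log2 ratio stood at −0.58 (SE 0.17, adjusted p = 0.217). DN9857_c0_g1 had 103, 75.6 and 77.6 FPKM in mature bottles, against 135, 123 and 180 FPKM in immature bottles, with a log2 ratio of −0.76 (SE 0.19, adjusted p = 0.190). DN3252_c0_g1 had 121 ± 34.0 against 203 ± 45.3 FPKM, and DN2041_c0_g1 29.2 ± 3.68 against 42.3 ± 14.2 FPKM (mean ± SD, n = 3).

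The last of the 5, DN3252_c0_g4, has 204 bases and was listed at 99.4, 0 and 11.8 FPKM in mature bottles, against 88.4, 223 and 130 FPKM in immature bottles. Mature bottle 1 lay within the immature range, and near this length the smallest values above 0 were 8.85 to 16.0 FPKM, so mature bottle 3 lay within the range of the smallest values; the log2 ratio was −3.66 (SE 1.59, adjusted p = 0.343). Together the 5 unigenes summed to 415 ± 112 FPKM in mature and 753 ± 73.9 FPKM in immature mycelia, which made up 74.1% of the difference in the sum of the class. That share includes DN3252_c0_g4, which averaged 37.1 FPKM in mature and 147 FPKM in immature mycelia with overlapping groups. Possible pieces of 1 gene count several times in it. The other 26 β-glucosidases summed to 895, 734 and 780 FPKM in mature bottles, against 980, 852 and 932 FPKM in immature bottles, where mature bottle 1 overlapped with the immature bottles.

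In another family 3 protein a single bottle stood apart. Its longest unigene DN5743_c0_g2 had 36.6, 38.1 and 32.3 FPKM in mature bottles, against 102, 30.8 and 35.4 FPKM in immature bottles. DN4080_c0_g1 had 15.3 to 22.6 FPKM in mature bottles, against 56.8, 17.9 and 26.0 FPKM in immature bottles. DN9641_c0_g1 had 14.3 to 21.0 FPKM in mature bottles, against 42.7, 12.03 and 18.1 FPKM in immature bottles. In these 3 unigenes immature bottle 1 was the highest of all 6. The same bottle held the highest value of 38 of the 104 members (36.5%), against 25.5% of all tested unigenes. The log2 ratios of these 3 unigenes were −0.33 to −0.57, while immature bottles 2 and 3 lay close to the mature bottles. The last and lowest unigene of this protein, DN5743_c0_g1, had a log2 ratio of 0.07.

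Among further abundant β-glucosidases of family 3, DN4793_c0_g1 stood at 106 ± 17.8 FPKM in mature and 127 ± 18.5 FPKM in immature mycelia, and DN4775_c0_g1 at 93.8 ± 13.4 against 109 ± 23.2 FPKM (mean ± SD, n = 3). DN6532_c0_g1, matched to β-glucosidase 6 of rice but in Nr to a family 1 protein of the fungus *Stereum hirsutum*, had 145, 69.0 and 70.1 FPKM in mature bottles, against 115, 121 and 151 FPKM in immature bottles. Mature bottles 2 and 3 lay below and mature bottle 1 among the immature bottles. In the class as a whole 22 of 31 log2 ratios were negative, where 57.7% of all unigenes lay below 0. The groups did not overlap for 6 that were lower (19.4%, background 14.2%) and 1 that was higher (3.23%, background 8.69%). Of the 6 that were lower, 3 were matched to the family 3 protein with 5 unigenes and may be pieces of 1 gene.

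The 19 members that act mainly on other substrates included enzymes on β-1,3-glucan, a polymer of the fungal cell wall. None (0) had an unadjusted p of at most 0.05 with limma, and their median log2 ratio was −0.06. DN4152_c0_g1, matched to the endo-1,3-β-glucosidase btgC and to family 17, had 290, 205 and 228 FPKM in mature bottles, against 222, 301 and 283 FPKM in immature bottles. DN8331_c0_g1, a glucan 1,3-β-glucosidase of family 5, differed widely between bottles of 1 stage, with 434, 95.8 and 98.4 FPKM in mature bottles and 102, 324 and 235 FPKM in immature bottles. Mature bottle 1 and immature bottles 2 and 3 were high and the remaining bottles low, and its log2 ratio was −0.30 with an SE of 0.71 (adjusted p = 0.864). DN3592_c0_g2, matched to a glucan 1,3-β-glucosidase D, was likewise highest in those 3 bottles, with 177, 101 and 86.6 FPKM in mature bottles and 66.9, 149 and 118 FPKM in immature bottles. The short DN3592_c0_g1 had 199, 87.1 and 154 FPKM in mature bottles and was listed at 0, 162 and 200 FPKM in immature bottles.

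The member with the lowest residual SD between bottles was DN8276_c0_g1, a glucan 1,3-β-glucosidase D, with 65.3, 67.0 and 67.4 FPKM in mature bottles, against 69.1, 73.5 and 68.2 FPKM in immature bottles. Its groups did not overlap, yet the log2 ratio was only −0.08 (SE 0.08, adjusted p = 0.673). DN7501_c0_g1, of the same name, had 81.9 ± 9.57 FPKM in mature and 104 ± 24.3 FPKM in immature mycelia (mean ± SD, n = 3). The 6 unigenes matched to the endo-1,3-β-glucosidase ARB_02077 of *Arthroderma benhamiae* had log2 ratios of −0.29 to 0.21. The α/β-glucosidase agdC unigene DN9294_c1_g1, of family 31, had 135 ± 12.1 against 128 ± 24.4 FPKM. The xyloglucan-specific enzyme DN9989_c0_g1 had 6.52 ± 2.50 against 7.92 ± 1.23 FPKM.

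Genes around cellulose breakdown were taken from lists of words and terms. By Nr name, 52 further unigenes belonged to the families of these enzymes, of which 2 were higher (background 1.18%) and 1 was lower (background 1.82%) at the study's thresholds, with a median log2 ratio of −0.12. The 15 further family 61 unigenes, which lack one of the matching Swiss-Prot names, had 5 positive and 10 negative log2 ratios, where 57.7% of all unigenes were negative. Their lowest p belonged to DN2913_c0_g1, matched to the polysaccharide monooxygenase Cel61a, with 22.6, 17.7 and 16.9 FPKM in mature bottles, against 12.4, 12.1 and 15.8 FPKM in immature bottles. Its groups did not overlap, and the log2 ratio was 0.47 (SE 0.17, adjusted p = 0.285). The 3 past the study's thresholds act on hemicellulose. On the log2 scale the β-xylosidase DN5073_c0_g2 stood at −1.24 (SE 0.17, adjusted p = 0.0886). Of a pair of β-mannanases, DN8865_c0_g1 stood at 1.10 (SE 0.24, adjusted p = 0.168) and DN5333_c0_g4 at 1.69 (SE 0.47, adjusted p = 0.206). DN5333_c0_g4 was listed at 3.45, 2.79 and 2.41 FPKM in mature and at 0, 0.73 and 0 FPKM in immature bottles. Only its mature bottles lifted its mean above 1 FPKM, and the size of its ratio depends on the 1 FPKM added. Of 23 further unigenes with a gene ontology term for cellulose binding, breakdown or β-glucosidase, 1 was higher at the study's thresholds (background 1.18%), the same DN8865_c0_g1.

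A further list of 30 unigenes held 11 glucose or hexose transporters, 10 lactose permeases and 1 catabolite repression protein. It also held 8 unigenes with an expansin-like name, which belong to proteins that loosen cell walls and not to sugar uptake. The list had a median log2 ratio of 0.09, and none (0) was past the study's thresholds in the limma fit. At an unadjusted p of at most 0.05, 2 were higher (6.67%, background 6.09%) and 1 was lower (3.33%, background 9.33%), and none (0) of these was expansin-like. The expansin-like unigenes had 4 positive and 4 negative log2 ratios with a median of −0.17. The glucose transporter unigene DN9353_c1_g1, matched to mfs1, had 79.3, 61.6 and 66.8 FPKM in mature bottles, against 98.3, 91.0 and 112 FPKM in immature bottles, and the log2 ratio came to −0.53 (SE 0.14, adjusted p = 0.190). DN1581_c0_g1, matched to the glucose transporter rco-3, had 240, 218 and 215 FPKM in mature bottles, against 189, 177 and 172 FPKM in immature bottles, with a fitted log2 ratio of 0.32 (SE 0.10, adjusted p = 0.225). Lactose permeases resemble the fungal carriers of cellobiose and longer cello-oligosaccharides, and of their 10 unigenes 6 had a positive and 4 a negative log2 ratio. DN6316_c0_g1, matched to the catabolite repression protein creC, had 31.8 ± 3.56 FPKM in mature and 32.8 ± 2.24 FPKM in immature mycelia (mean ± SD, n = 3).

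The precision of these values differed with the length of the unigene. On log2(FPKM + 1), the residual SD had a median of 0.612 for the 20 members under 500 bases and 0.232 for the other 84. The 3 members whose log2 ratio lay beyond 2 in either direction had 204 to 293 bases. The deposited table gives no fragment counts, so the depth behind a value is not known directly.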

How the data were processed

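The authors extracted total RNA of mycelia and sequenced its mRNA as 6 stranded paired-end libraries, 3 bottles per stage. The authors cleaned the reads with cutadapt, assembled them with Trinity, merged contigs by TGICL-2.1 and took as unigenes the longest isoforms. The authors' deposited values are FPKM from RSEM, for which column sums lay between 1206304 and 1238506. Each of the 6 columns was mapped to its stage by name, and the bottle numbers are those of the column names.

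Mature and immature bottles were compared with limma 3.58.1 in R 4.3.3 (trend, two-sided) on log2(FPKM + 1) for unigenes with a mean above 1 FPKM. The study used DESeq2 on read counts, which were not used here. The fit was tested on simulated data. P values rest on the spread between 3 bottles of each stage, with the variance of each unigene drawn toward a trend over all unigenes fitted. An exact test of 1 unigene could not go below 0.1.

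Classes followed the words of the Swiss-Prot name, except that 8 members were moved by their Nr family or substrate. The members, lists and classes were chosen with earlier results of these data known. Values are given for the 6 most abundant members of each class, those past a threshold and all endoglucanases; others named were chosen after their values were seen. No sequences of the unigenes were used here. Figures were drawn with matplotlib 3.10.9 in Python 3.11.15.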

Additional observations from a re-analysis of the deposited data

How the results depend on the processing

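Other pseudocounts, filters, scalings, variance priors, a block for the bottle number and leaving out each bottle were tried. The number of members past the study's thresholds that were higher, 2, was 1 with 5 FPKM added or with a mean above 5 FPKM. It was 0 among unigenes of at least 500 bases or with each Nr protein counted once by its longest unigene, which was chosen after seeing the data. The mean above 5 FPKM left out DN558_c0_g1, and the settings on length and Nr protein left out both it and DN3476_c0_g1. Those settings did not retest the unigenes they left out. The number that were lower, 0, was 1 with 5 FPKM added, and 0 to 1 when a bottle was left out: DN5472_c0_g2 without immature bottle 1, immature bottle 3 or mature bottle 3, DN8839_c0_g2 without immature bottle 2, and DN3252_c0_g4 without mature bottle 1. The number that were higher stayed at 2 when any bottle was left out. The number past an adjusted p of 0.05, 0, was 1 of 84 among unigenes of at least 500 bases (DN5472_c0_g2, limma), where 101 of all 11839 unigenes passed (0.853%). The median log2 ratio of the members was −0.18 to −0.10 when a bottle was left out, and −0.08 with quantile normalization, which moved the median of all unigenes to −0.0035, against −0.07 as deposited. DN558_c0_g1 had a log2 ratio of 0.85 with 5 FPKM added, where it missed the study's limit. The adjusted p of DN3476_c0_g1 was 0.0755 to 0.323 over the alternatives.

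Same-numbered bottles of both stages did not deviate together (r of −0.09, −0.04 and −0.01 across unigenes), so the bottle numbers pair nothing. With the replicate block 2 members were higher and 0 lower, as without it. The β-glucosidase sum had a log2 ratio of −0.46, and −0.60 to −0.38 when a bottle was left out. The small log2 ratio of the cellobiohydrolase sum, −0.01, lay on either side of 0 when a bottle was left out, between −0.11 and 0.06.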
